A study of Mus musculus with 15 samples.

Results

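The livers compared here came from mice that had received the carcinogen diethylnitrosamine (DEN) and then a plasmid for Gas1. They were set against livers from saline-injected mice. The genes described are those that differed from control after DEN and Gas1 delivery, whether or not they also differed in DEN livers without Gas1. The arrays were chosen by their titles, Gas1 G1 to G6 and Control C1 to C4, which made 10 of the 15 arrays of the study. Arrays C3 and C4 carried the same RNA code and were averaged, which left 6 livers of group G and 3 of group C, or 9 of the 13 livers in all. A gene counted as detected when the scanner software called at least 1 of its probes well above background in at least 3 of these 9 livers, and 12884 of the 22032 gene symbols on the array passed.

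All animals were male CD1 mice, an outbred strain, and liver RNA was measured on 1-colour Agilent mouse arrays. Every group received a plasmid by hydrodynamic gene delivery (HGD), a fast tail vein injection that drives DNA into liver cells, at 50 µg of DNA each time. According to the methods of the study, injections were given weekly from week 28 to week 34 and livers were taken at week 35, whereas the sample labels give an age of 10 weeks. Group C (n = 3 livers) was injected with saline in place of DEN and carried the empty plasmid. Group G (n = 6) received DEN at day 15 of life and a plasmid with HA-tagged Gas1 under the CAG promoter, which is active in most cell types. Group T (n = 4), used here for the shared estimate of the spread and for side-by-side values, received DEN and the empty plasmid. HGD reaches only a part of the liver cells, mainly near vessels, and the plasmid and its mRNA are transient, which limits group G as a model of Gas1 overexpression. The study reports that the tagged protein outlasted them, and the weekly injections were meant to keep its level steady. Food was freely available, and the hour of the day at which the livers were taken is not given in the sources used here.

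Gas1 (growth arrest specific 1) encodes a membrane-anchored protein that blocks entry into the cell cycle when overexpressed and also acts as a co-receptor for hedgehog ligands. Many liver genes follow the circadian clock, in which the activators Clock and Arntl drive their own repressors of the Per, Cry and Nr1d families and output factors such as Dbp and Tef. Liver metabolism also follows feeding: in the fed state acetyl units from glucose go into fatty acids and sterols, and in the fasted state Pck1 turns amino acid and lactate carbon into new glucose.

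Values are given as log2 signal after background correction and quantile normalization, and differences as the mean of group G minus the mean of group C on the log2 scale with the standard error (SE) of the linear model. The adjusted p-values are those of limma with Benjamini-Hochberg adjustment over all 22032 symbols, and a gene was called when its adjusted p was under 0.05. Nothing in the labels says more about the replicates than their separate RNA codes, so the p-values measure the spread between these livers. In whole liver, fewer cells of a type and less RNA per cell cannot be told apart.

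Between 15707 and 27681 spots (median 19820.5) were well above background on the arrays of group C. On those of group G there were between 18041 and 29765 (median 25491). The ranges of the groups overlapped, but the median was higher in group G, which limits statements on detection. Pairs of livers were compared by the SD of their gene-by-gene log2 differences over 7744 genes. It was 0.290 to 0.315 among the control livers, 0.211 to 0.384 among the Gas1 livers and 0.308 to 0.473 between these groups. All 6 hepatocyte markers were detected, at a mean log2 signal of 16.11 to 16.23 in the control livers and 15.86 to 16.17 in the Gas1 livers, and none of them was called. Gas1 itself stood at 6.30, 6.67 and 6.61 in the control livers and at 6.49 to 6.79 (median 6.59) in the Gas1 livers. The Gas1 difference was 0.08 ± 0.09 (SE, limma adjusted p = 0.731). Whether the array's sequence for Gas1 lies in the part carried by the plasmid was not determined. These values therefore do not show whether the plasmid's mRNA was present.

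Of the 22032 symbols, 94 (0.427%) were called between the Gas1 and the control livers, 39 higher and 55 lower in the Gas1 livers. All 94 were among the detected genes, of which they made 0.73%. The called genes covered the circadian clock, glucose and lipid metabolism, and a dense stretch of zinc finger genes on chromosome 2, beside single genes for transport and detoxification. Their changes were mostly small: the median size was 0.58 on the log2 scale, the range 0.29 to 4.29, and 16 genes (11 higher, 5 lower) passed 2-fold. The control and Gas1 livers did not overlap in any of the 94, and the same was true of 1055 detected genes (8.19%). Without adjustment, 2906 symbols had p under 0.05. The median within-group SD over detected genes was 0.133 in group C and 0.149 in group G.

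The number of calls rested on single livers. It was 0 without liver G3 (2460 at an unadjusted p under 0.05), 12 without G2, 31 without G1, 40 without G5, 81 without G4 and 153 without G6. It was 8 without control liver C1, 15 without C2 and 182 without C3. Leaving out 1 DEN liver, which enters only through the shared spread, gave 50 to 110 calls, with 56 without T2, 59 without T3 and 50 without T4. Both slides held all groups, and the count was 166 with slide as a term, 1 within slide 1 and 3 within slide 2. Among the 94 genes, 93 had a difference of the same sign on both slides, and the remaining gene, Prkce, had no value on slide 1. Scaling each array to its median in place of quantile normalization left 0 calls (6631 at an unadjusted p under 0.05) and moved the median of the detected genes up by 0.40. Relative to that shift 92 of the 94 kept their sign.

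**Figure D1:**
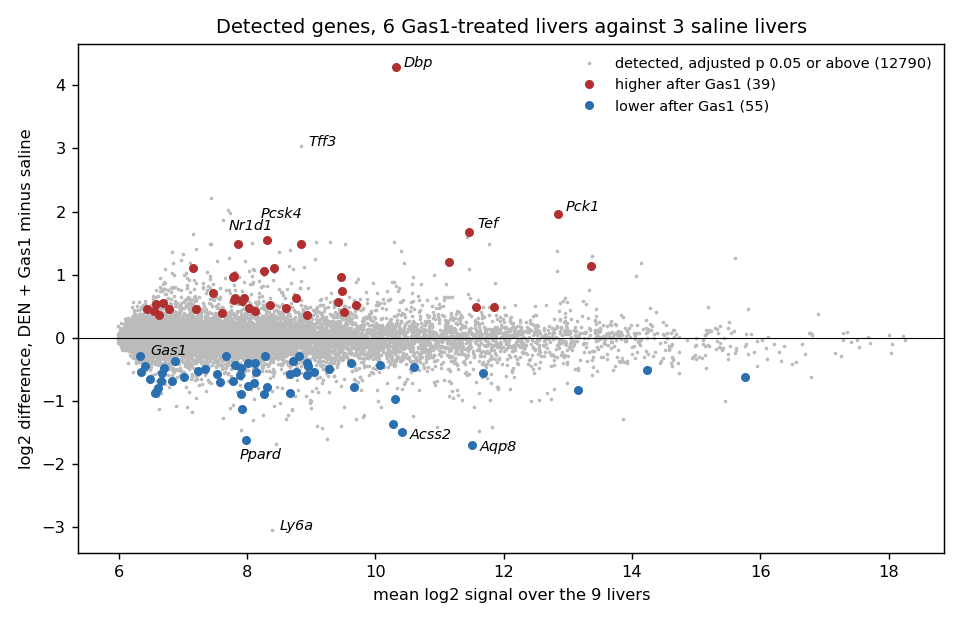
Mean log2 signal (horizontal axis) against the log2 difference of Gas1 minus control livers (vertical axis) for the detected genes, 1 point per gene. Of 12884 genes, 39 were called higher and 55 lower, and Dbp, at a difference of 4.29, lies farthest from 0 among the called genes.

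The largest called change was in Dbp, a clock-controlled transcription factor. Its log2 signal was 7.03, 8.26 and 7.08 in the control livers and ran from 10.59 to 12.81 (median 11.82) in the Gas1 livers. Every Gas1 liver was above every control liver, by more than 2 log2 units. Dbp rose by 4.29 ± 0.62 (SE, 19.6-fold, limma adjusted p = 0.0252), and both of its probes did so, at 4.49 and 4.09. Tef, a related factor of the same family, was at 10.10, 10.50 and 10.42 in the control livers and at 11.05 to 12.71 in the Gas1 livers, with the middle livers at 11.94 and 12.05. Tef rose by 1.68 ± 0.31 (3.21-fold, adjusted p = 0.0412). Livers G5 and G2 were the highest in both genes. Nr1d1, the clock repressor also known as Rev-erb alpha, was at 6.29, 7.14 and 7.17 in the control livers and lay within 8.22 to 8.47 (median 8.37) in the Gas1 livers. Nr1d1 rose by 1.49 ± 0.17 (2.80-fold) and had the lowest adjusted p of all genes, 0.0223. It was well above background on 3 of the 4 control arrays and on all 6 Gas1 arrays.

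Klf9, a transcription factor induced by glucocorticoids and under clock control, was at 8.8, 8.93 and 9.24 in the control livers and at 9.54 to 10.23 (median 9.66) in the Gas1 livers. Klf9 rose by 0.74 ± 0.14 (1.67-fold, adjusted p = 0.0462). Clock-linked genes also fell. Ppard, a nuclear receptor for fatty acids, was at 9.41, 8.54 and 9.27 in the control livers and at 7.17 to 7.77 (median 7.39) in the Gas1 livers. Ppard fell by 1.62 on the log2 scale (SE 0.24, 3.08-fold lower, adjusted p = 0.0252). Lonrf3, a RING finger gene, was at 7.17, 6.85 and 7.32 in the control livers and at 6.29 to 6.68 (median 6.43) in the Gas1 livers. Lonrf3 fell by 0.68 (SE 0.11, 1.60-fold lower, adjusted p = 0.0317), with its probes at -0.94 and -0.42. Thus 4 clock-linked genes rose and 2 fell. Klf9 is in neither clock list and was added to this group after its values were seen. The groups did not overlap in these 6 genes, as in all 94 calls and in 8.19% of detected genes.

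Among the 15 detected genes of the core clock list, 1 was called, 10 differences were above 0 and 5 below, and their median was 0.18. Among the 15 detected clock output genes, 2 were called higher and 2 lower, 11 differences were above 0 and 4 below, and the median was 0.33. Over all detected genes 52% were above 0 and 0.73% were called. Several clock genes had large differences that missed the threshold. Per3, a period family repressor, was at 5.86 to 6.03 in the control livers, where no array was above background, and at 6.68 to 7.97 in 5 Gas1 livers, at least 2.11-fold higher between the group means (adjusted p = 0.089). Usp2, a clock-controlled deubiquitinase, was at 6.30 to 6.43 in the control livers and at 7.09 to 9.45 in the Gas1 livers (1.87 ± 0.57, adjusted p = 0.18). Arntl, the clock activator, picked after its values were seen, was at 8.09, 7.65 and 8.02 against 6.33 to 7.17 (-1.17 ± 0.26, adjusted p = 0.0761, called without T1). The livers did not overlap in these genes either.

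The DEN livers with empty plasmid shared the control livers, so their values stand beside these and are not an independent comparison. In all, 2.38% of symbols were called between DEN and control livers and 0.127% between Gas1 and DEN livers. Dbp lay between 9.37 and 11.99 in the DEN livers, 3.72 above the controls, Tef between 11.35 and 12.25 (1.53) and Nr1d1 between 7.51 and 8.05 (0.97). Ppard lay between 7.34 and 8.40 in the DEN livers (-1.40). Klf9 lay between 9.14 and 9.40 there (0.27, limma adjusted p = 0.361). Between the Gas1 and the DEN livers themselves none of these 5 genes was called, and the adjusted p-values ran from 0.165 for Klf9 to 0.890 for Tef. Of the 6 clock-linked calls between Gas1 and control livers, 0 were kept without G3, where their adjusted p-values ran from 0.0531 to 0.0772, 1 without G2, 1 without C1 and 3 without G1. Without C2, C3, G4 or G5 there were 4, without G6 all 6, and without 1 DEN liver 4 or 5.

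**Figure D2:**
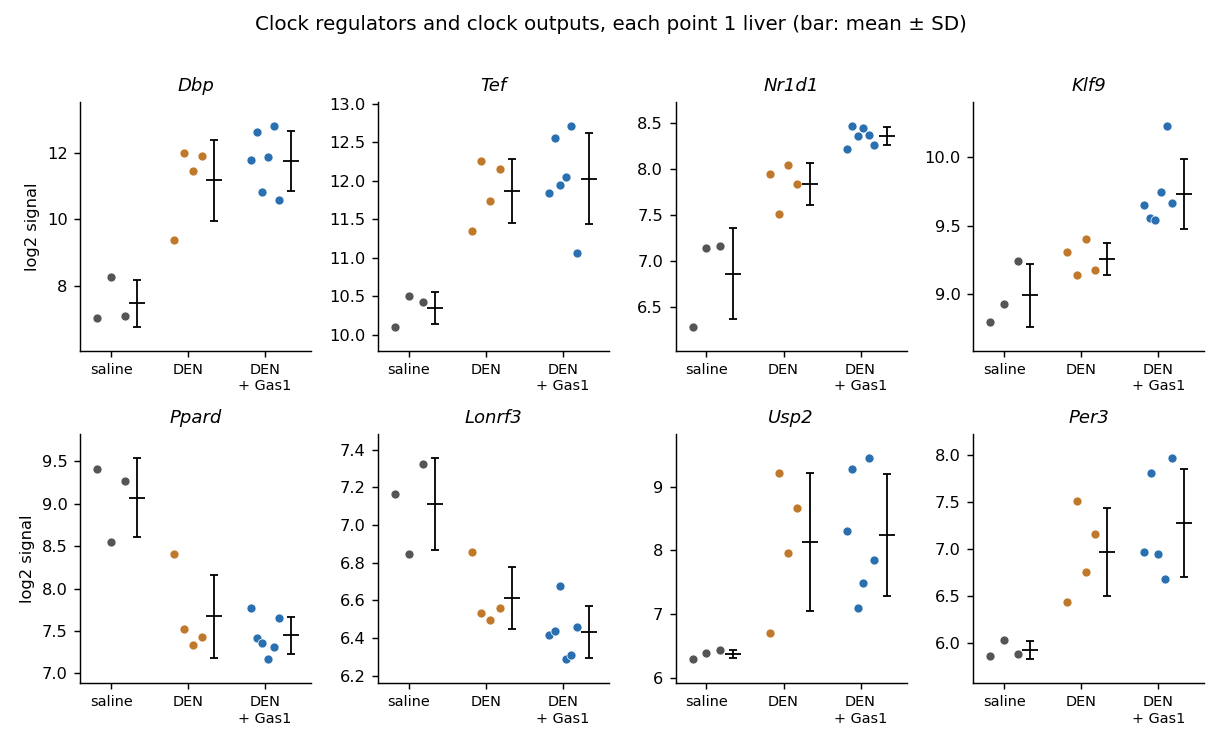
Log2 signal of clock-linked genes (vertical axis, 1 panel per gene) in saline, DEN and DEN + Gas1 livers, each point 1 liver with the mean and SD as a bar. Dbp reached 12.81 in the Gas1 livers against 8.26 at most in the control livers.

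The promoters of 8 of these genes (Dbp, Tef, Nr1d1, Klf9, Ppard, Lonrf3, Per3 and Usp2) were read for the best known clock elements, since these genes are under clock control in liver. The windows hold 250 bases before and 50 after the annotated start, 300 bases in all, from RefSeq on build GRCm38.p6, and 9 windows matched these genes. The E-box CACGTG, the site of Clock and Arntl, was in 3 of the 9 windows and in 7.15% of the 32851 mouse windows. The D-box TTATGTAA, the site of the Dbp family, was in 1 of the 9 and in 0.938% of all windows. Both strands were searched, and the motifs do not overlap each other. The 4 windows with a match are shown, with the matched motif in capitals.
Tef (chr15:81802423-81802722, plus strand): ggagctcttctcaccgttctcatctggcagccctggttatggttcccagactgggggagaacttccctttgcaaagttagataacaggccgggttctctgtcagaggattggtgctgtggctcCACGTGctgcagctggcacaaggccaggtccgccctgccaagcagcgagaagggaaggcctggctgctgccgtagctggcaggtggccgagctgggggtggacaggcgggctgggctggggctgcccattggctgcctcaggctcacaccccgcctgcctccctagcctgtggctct
Tef (chr15:81811164-81811463, plus strand): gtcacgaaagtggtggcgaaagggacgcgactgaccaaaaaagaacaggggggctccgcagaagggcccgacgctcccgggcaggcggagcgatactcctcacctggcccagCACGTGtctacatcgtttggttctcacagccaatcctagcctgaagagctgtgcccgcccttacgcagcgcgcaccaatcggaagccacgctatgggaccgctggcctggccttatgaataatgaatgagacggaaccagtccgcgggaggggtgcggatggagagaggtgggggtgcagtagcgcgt
Lonrf3 (chrX:36328159-36328458, plus strand): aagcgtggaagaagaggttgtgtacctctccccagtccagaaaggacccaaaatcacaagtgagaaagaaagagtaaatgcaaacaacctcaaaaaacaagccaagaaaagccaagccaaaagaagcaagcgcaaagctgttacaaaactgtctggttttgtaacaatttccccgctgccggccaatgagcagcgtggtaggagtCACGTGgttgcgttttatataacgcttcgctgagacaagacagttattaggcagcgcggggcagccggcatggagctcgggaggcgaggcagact
Per3 (chr4:151044616-151044915, minus strand): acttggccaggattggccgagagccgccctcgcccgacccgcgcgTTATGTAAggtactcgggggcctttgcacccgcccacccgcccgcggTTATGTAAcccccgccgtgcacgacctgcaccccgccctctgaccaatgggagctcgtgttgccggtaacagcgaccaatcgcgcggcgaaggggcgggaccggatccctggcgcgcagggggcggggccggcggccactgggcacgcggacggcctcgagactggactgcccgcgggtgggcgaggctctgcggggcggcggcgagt
Tef has an alternative start, and each of its windows held 1 E-box, at -127 and -138 from the respective start. Lonrf3 held its E-box at -45. Per3, whose difference was not called, held 2 D-boxes at -205 and -158. In the windows of Dbp, Nr1d1, Ppard, Klf9 and Usp2 these letters were not found, which says nothing about sites elsewhere in those genes. The matches are descriptions of sequence and were not tested against the differences.

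In glucose, fatty acid and sterol metabolism, the gluconeogenic gene Pck1 rose, and Pgd, Acss2 and Lss fell. Pck1, the phosphoenolpyruvate carboxykinase of new glucose production, was at 10.88, 12.35 and 11.40 in the control livers and at 12.75 to 13.98 (median 13.53) in the Gas1 livers. Every Gas1 liver was above every control liver, although C2 came close to the lowest. Pck1 rose by 1.96 ± 0.38 (SE, 3.89-fold, limma adjusted p = 0.0495), just inside the threshold. Pgd, an enzyme of the pentose phosphate pathway that supplies NADPH, was at 9.33, 9.51 and 9.15 in the control livers and at 8.55 to 8.99 (median 8.70) in the Gas1 livers. Pgd fell by 0.60 (SE 0.11, 1.51-fold lower, adjusted p = 0.0471). Pck1 and Pgd were called among the 22 detected members of the glucose and glycogen list, in which 7 differences were above 0 and 15 below, with a median of -0.13, against 0.73% called and 52% above 0 over all detected genes. The mean log2 signal over that list was 10.98 to 11.34 in the control and 11.03 to 11.53 in the Gas1 livers.

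Acss2 makes acetyl-CoA from acetate in the cytosol. It was at 11.45, 11.20 and 11.58 in the control livers and at 9.75 to 10.20 (median 9.87) in the Gas1 livers, a gap of 1 log2 unit between the groups. Acss2 fell by 1.49 (SE 0.20, 2.80-fold lower, adjusted p = 0.0252), with its probes at -1.43 and -1.55. Acss2 was the 1 called member among the 19 detected lipogenesis genes, of which 17 lay below 0 and 2 above, with a median of -0.82. Over all detected genes 0.73% were called and 52% lay above 0. The mean log2 signal over that list was 10.28 to 10.68 in the control livers and 9.46 to 10.05 in the Gas1 livers, so the ranges did not overlap. Acly, which makes cytosolic acetyl-CoA from citrate, was at 11.94, 12.26 and 11.51 against 9.97 to 11.17 and missed the threshold (-1.42 ± 0.28, adjusted p = 0.0553). Without C3, G1 or T4 Acly was called. Pnpla5, a lipase gene outside the list, fell by 0.80 (1.74-fold lower, adjusted p = 0.0483). It was well above background on only 3 of the 6 Gas1 arrays.

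In sterol synthesis 1 of 21 detected genes was called, while 20 differences lay below 0 and 1 above, with a median of -0.47. The shares over all detected genes were 0.73% called and 52% above 0. The called gene was Lss, the lanosterol synthase that closes the sterol ring. Lss was at 9.04, 8.46 and 9.07 in the control livers and at 7.70 to 8.26 (median 7.91) in the Gas1 livers, and it fell by 0.89 (SE 0.17, 1.86-fold lower, adjusted p = 0.0462). The mevalonate pathway enzymes Fdps and Mvd had differences of -1.01 (adjusted p = 0.0511, called without T3) and -1.14 (adjusted p = 0.0661). The mean over the list was 9.82 to 10.17 in the control livers and 8.92 to 9.91 in the Gas1 livers, so here the ranges overlapped. Other metabolic calls were Rdh11, a retinol dehydrogenase, which fell by 0.97 (1.95-fold lower, adjusted p = 0.0427), and Haao, an enzyme of tryptophan breakdown, which fell by 0.52 (1.43-fold lower, adjusted p = 0.0269). They were the 1 called gene of 18 detected in the retinoid list and of 30 in the amino acid catabolism list.

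Set beside these values, with the same control livers, the DEN livers were at 9.01 to 10.20 for Acss2, 1.78 below the controls (limma adjusted p = 0.00423), and at 8.38 to 8.85 for Pgd, 0.71 below (0.0175). Pck1 lay at 11.99 to 13.64 in the DEN livers, 1.23 above the controls (0.124). The median of the lipogenesis list was -0.90 in the DEN livers against the controls. Between Gas1 and DEN livers Pck1 differed by 0.73 and was not called (adjusted p = 0.477). Of the 7 calls Pck1, Pgd, Acss2, Lss, Pnpla5, Rdh11 and Haao, 0 were kept without G3 (adjusted p 0.0531 to 0.086) or without C1 (0.0718 to 0.206), 1 without G2, 2 without C2, G4 or G5, 4 without G1 or C3 and 6 without G6. Leaving out a DEN liver kept 2 (T2 or T4), 5 (T1) or 6 (T3). With median scaling Haao (0.38) and Pgd (0.20) stood above 0, in a setting that moved the detected median by 0.40.

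**Figure D3:**
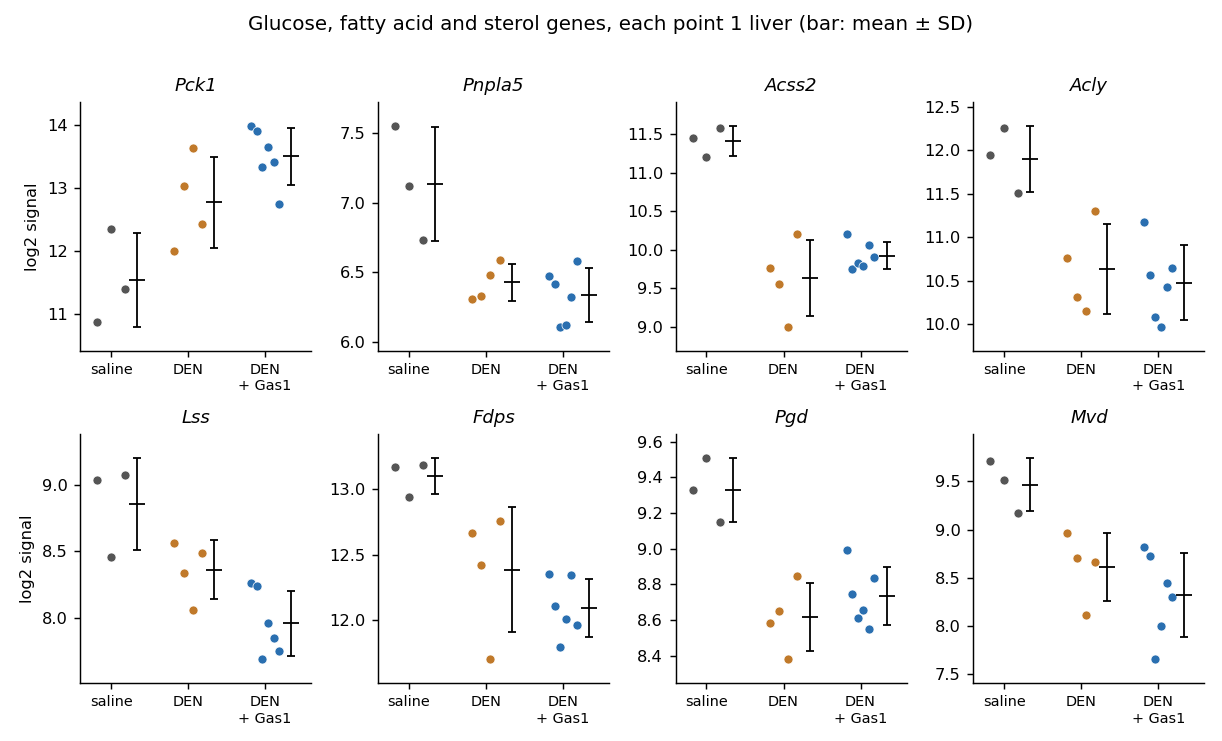
Log2 signal of 8 genes of glucose, fatty acid and sterol metabolism (vertical axis, 1 panel per gene) in saline, DEN and DEN + Gas1 livers, each point 1 liver with the mean and SD as a bar. Pck1 was higher and the other 7 were lower in the Gas1 than in the control livers, and Acly, Fdps and Mvd did not pass the threshold.

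Chromosome 2 held 18 of the 94 calls, 1.78% of its 1012 detected genes, against 0.645% of the 11784 detected genes with another chromosome. The next highest share was 0.949% on chromosome 10. Of the 18, 8 lay in one stretch between Slmo2 and Cdh26, at 174887050 to 177802459 on build mm9, 2915 kb long. The stretch holds many zinc finger genes of related sequence. Many zinc finger proteins of this kind carry a KRAB domain and repress transcription, and their genes arose by repeated local duplication. Whether each of the 8 genes encodes such a protein was not tested, and Gm14435 now has the pseudogene symbol Zfp968-ps. The stretch was picked after its values were seen, and its genes are described without a test of the stretch itself. Without it, 10 of 997 detected genes on chromosome 2 were called (1%).

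The probes of this stretch are shown first, because probes that share sequence can share signal. All are 60 bases long, from the array's annotation on build mm9, and the capitals mark a run of 15 letters that several of them have in common.
LOC664987 (chr2:174887050-174887109, minus strand): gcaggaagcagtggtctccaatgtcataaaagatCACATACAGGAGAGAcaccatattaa
Gm14391 (chr2:175880321-175880380, plus strand): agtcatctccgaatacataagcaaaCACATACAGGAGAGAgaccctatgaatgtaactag
LOC628239 (chr2:176910605-176910664, minus strand): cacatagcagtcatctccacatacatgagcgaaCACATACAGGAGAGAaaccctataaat
Gm14326 (chr2:177680655-177680714, minus strand): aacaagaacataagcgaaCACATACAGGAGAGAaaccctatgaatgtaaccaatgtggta
Gm14326 (chr2:177678726-177678785, minus strand): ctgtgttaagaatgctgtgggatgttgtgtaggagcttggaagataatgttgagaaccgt
Gm14435 (chr2:175108805-175108864, plus strand): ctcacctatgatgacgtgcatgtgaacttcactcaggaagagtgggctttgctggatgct
OTTMUSG00000016609 (chr2:176083038-176083097, minus strand): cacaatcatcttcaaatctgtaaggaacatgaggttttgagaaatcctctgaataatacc
The capital letters were in 8 of the 23 probes of the stretch (34.8%) and in 0 of the 29499 other probes with a symbol. In all, 12 of the 23 probes shared a run of at least 20 letters with a probe of another gene. The first 4 sequences carry the run and the last 3 do not. The genes of the stretch are therefore uncertain one by one, and their differences cannot be taken as separate measurements. Whether the shared letters carry the signal was not tested. The median difference was 0.88 over probes with the run (0.071 to 1.49) and 0.78 over those without it (0.054 to 1.67). Probes without this run can share other letters, up to 33 for a probe of LOC100504146 and 31 for that of Gm14308. The split therefore does not separate shared from unshared sequence.

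Of the 24 symbols in the stretch 15 were detected, and all 15 differences were above 0. Over all detected genes 52% were above 0 and 0.73% were called. The 8 calls were all higher in the Gas1 livers, and 13 of the 15 genes had no overlap between the groups, against 8.19% of all detected genes. LOC664987 was at 7.77, 8.10 and 7.66 in the control livers and at 8.83 to 10.09 (median 9.28) in the Gas1 livers. It rose by 1.49 ± 0.25 (SE, 2.81-fold, limma adjusted p = 0.0317). Gm14391 rose by 1.11 (2.15-fold), OTTMUSG00000016609 by 1.10 (2.15-fold) and LOC628239 by 1.06 (2.09-fold). OTTMUSG00000016609 was well above background on only 2 of the 4 control arrays, which limits its fold value. Gm14326 and Gm14440 each rose by 0.97, Gm14435 by 0.96 and Zfp931 by 0.71. The printed probes without the shared run were taken from called genes, so that they differed was fixed by that choice. That of OTTMUSG00000016609 was at 1.10 and that of Gm14435 at 0.96. The second of Gm14326, picked as the highest of that gene's probes, was at 1.67, and the lowest of them at 0.48. Other probes without the run were at 0.054 for Gm14439, 0.24 for Gm14407 and 0.42 to 1.235 for Gm14431. Gm14431, picked after its values were seen, missed the threshold (0.91, adjusted p = 0.0511) and passed it without G6.

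The 2 detected genes of the stretch with a mean log2 signal over 10 were those without a separation of the groups. Gm14439 was at 12.53 to 12.69 in the control livers and 12.52 to 12.91 in the Gas1 livers (0.05, adjusted p = 0.849), and Gm14407 had a difference of 0.24 (adjusted p = 0.469). The mean over the other 13 genes was 7.11, 7.27 and 7.12 in the control livers and 7.89 to 8.52 in the Gas1 livers, with G5 the highest. It was 7.5 to 8.0 in the DEN livers, where 2 genes of the stretch were called against the same controls. The 20 detected genes on either side of the stretch ran from -0.17 to 0.35, with 11 above 0 and 0 called. Of the 8 calls, 0 were kept without G3 (adjusted p 0.0627 to 0.0854), G2 (0.0566 to 0.071) or C1 (0.0819 to 0.184), 1 without C2, 3 without C3 or G1, 7 without G4 or G6 and 8 without G5. Leaving out a DEN liver kept 6 (T3) or 7.

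**Figure D4:**
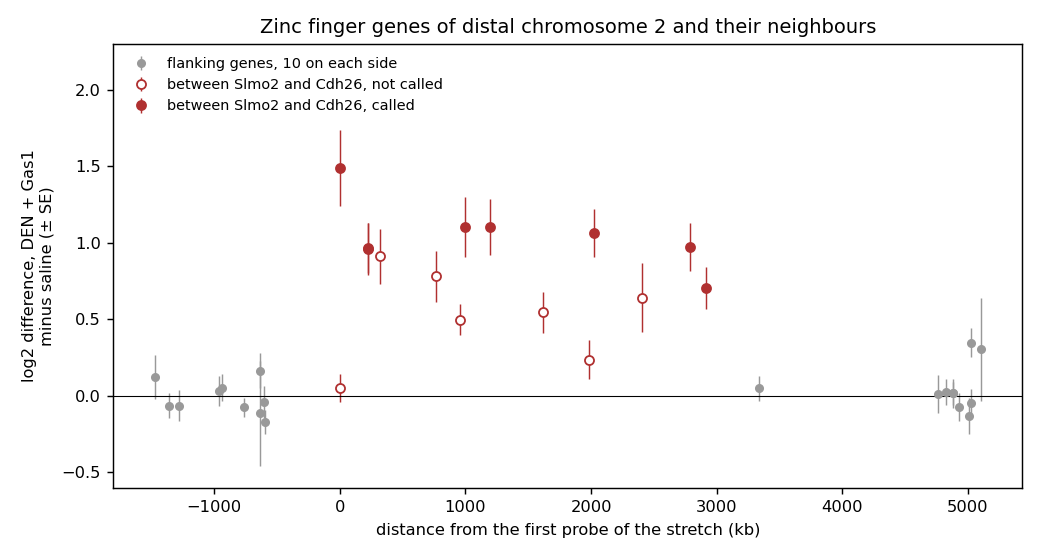
Log2 difference of Gas1 minus control livers (vertical axis) for the detected genes of the zinc finger stretch on chromosome 2 and the 20 genes beside it, by their distance in kb from the first probe of the stretch (horizontal axis), with the SE as bars. The stretch holds 8 called genes and the flanks none, with flank differences between -0.17 and 0.35.

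The largest decrease among the called genes was that of Aqp8, a water channel of the hepatocyte. Aqp8 was at 12.87, 12.42 and 12.62 in the control livers and at 10.23 to 11.35 (median 10.98) in the Gas1 livers, with more than 1 log2 unit between the groups. Aqp8 fell by 1.70 (SE 0.30, 3.25-fold lower, limma adjusted p = 0.0403), and in the DEN livers it was at 9.62 to 11.25. Pcsk4, a proprotein convertase best known from germ cells, was at 7.26, 7.03 and 7.53 against 8.22 to 9.84 (median 8.72). Pcsk4 rose by 1.55 ± 0.28 (2.92-fold, adjusted p = 0.0412), while the DEN livers lay between 7.74 and 8.05. Mcm10, a DNA replication initiation factor, rose by 1.19 ± 0.23 (2.29-fold, adjusted p = 0.0462), and Scand1, a SCAN domain gene, by 1.14 ± 0.18 (2.20-fold, adjusted p = 0.0294). Mcm10 was high in every liver, at 10.12 to 10.47 in the control and 10.83 to 11.90 in the Gas1 livers.

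Slc25a47, a mitochondrial carrier of the liver, was picked after its values were seen. It was at 11.43, 11.56 and 11.57 in the control livers, at 11.96 to 12.17 in 5 Gas1 livers and at 11.03 to 11.29 in the DEN livers. The 3 groups thus did not overlap. Slc25a47 rose by 0.49 ± 0.07 between control and Gas1 livers (1.41-fold, adjusted p = 0.0276). The DEN livers were 0.34 below the controls (adjusted p = 0.0466), and the Gas1 livers 0.83 above the DEN livers (adjusted p = 0.000581).

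The other named calls were of mixed function. Ugt2b35, a glucuronosyltransferase, rose by 0.52 (1.43-fold) and was the 1 call among 26 detected phase II genes, and Gstm7, a glutathione transferase outside that list, fell by 0.55 (1.46-fold lower). Itpr3, a calcium release channel of the endoplasmic reticulum, rose by 0.54 (1.45-fold), and Plekhm2, which links lysosomes to kinesin, by 0.40 (1.32-fold). Rbm3, a cold-inducible RNA-binding protein, rose by 0.47 and was the 1 call among 21 genes of the heat shock list. Over all detected genes the share called was 0.73%. Pgrmc2, a haem-binding membrane protein, fell by 0.72 (1.65-fold lower). Mif4gd, a translation factor partner, fell by 0.50 and Tulp2, a tubby family gene, by 0.62. Paqr9 fell by 0.79, Gypc, a membrane skeleton glycoprotein, by 0.79, Ppp1r1b, a phosphatase inhibitor, by 0.87, Abtb2 by 0.89 and Cpne1, a calcium-dependent phospholipid-binding protein, by 0.86. Ebpl, measured in 4 Gas1 livers, fell by 0.83, and the less studied genes 1110067D22Rik, LOC100504710 and 5430405H02Rik fell by 1.14, 0.87 and 0.54. The probes of 5430405H02Rik disagreed, at -0.95 and at -0.036 for one above background on no array, and those of Cpne1 were at -1.35 and -0.36. The adjusted p-values of these genes ran from 0.0252 to 0.0495. Levels near background limit the fold values of some. Itpr3 was well above background on 2 of the 4 control arrays, LOC100504710 on 3 of the 6 Gas1 arrays and Cpne1 on 4 of them.

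For Mzt1 and Prkce no control array was well above background, so only bounds hold: the Gas1 livers were at least 1.29-fold and at least 1.33-fold higher (adjusted p = 0.0269 and 0.0454). Prkce was valued in 2 control and 3 Gas1 livers. Of the 22 further named calls, from Aqp8 to 5430405H02Rik and without Mzt1 and Prkce, 0 were kept without G3 (adjusted p 0.0531 to 0.0842), 2 without C1, 3 without C2, 6 without G2, 10 without G1, 13 without C3 or G5, 16 without G4 and 22 without G6. Leaving out a DEN liver kept 14 to 20. With median scaling Ebpl (0.073), Gstm7 (0.12) and Mif4gd (0.31) stood above 0.

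No member of the remaining lists was called, where 0.73% of all detected genes were called and 52% lay above 0. The liver tumour and fetal liver list had 19 detected members and 0 calls, with 17 differences above 0 and 2 below and a median of 0.46. Its largest difference was that of Tff3, a trefoil peptide that many liver tumours make. Tff3 was at 6.94, 6.87 and 6.62 in the control livers and at 8.58 to 11.32 (median 9.76) in the Gas1 livers, so that the groups did not overlap, and its difference of 3.04 ± 0.60 just missed the threshold (limma adjusted p = 0.0511). Without G6 the difference was 2.75 and passed, as it did without T1. In the DEN livers it lay between 10.53 and 12.87, 5.12 above the controls. H19, an imprinted fetal RNA, was at 5.96 to 6.18 in the control livers, where no array was above background, and at 6.14 to 11.84 (median 6.89) in the Gas1 livers (adjusted p = 0.51). Its groups overlapped, and 1 liver, G6, stood far above the others.

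The acute phase list holds the plasma proteins of inflammation and had 0 calls among 23 detected genes. Against 52% above 0 over all detected genes, the list had 3 differences above 0 and 20 below, with a median of -0.24. The mean log2 signal over it was 11.52 to 11.79 in the control livers, 11.20 to 11.35 in the Gas1 livers and 11.72 to 13.78 in the DEN livers. Lbp, the lipopolysaccharide binding protein, was at 9.90 to 10.64 in the control and 8.39 to 8.91 in the Gas1 livers (-1.61, adjusted p = 0.144, called without T4). Saa1, a serum amyloid, was at 11.68 to 13.23 against 10.85 to 11.43 (-1.10, adjusted p = 0.681), and the DEN livers spread from 12.39 to 18.39. None of the detected members of the cell cycle (18), hedgehog (8), macrophage (15), lymphocyte (14), endothelium (5), neutrophil (3) or cholangiocyte (4) lists was called, where 0.73% of all detected genes were. The replication factor Mcm10, called above, is not a member of the cell cycle list.

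Some other large differences missed the threshold. Ly6a, an interferon-induced surface protein, was at 12.94, 10.04 and 8.26 in the control livers and at 7.0 to 7.53 in the Gas1 livers (-3.04, adjusted p = 0.0774), with an SD of 2.36 in group C. Without C3 the Ly6a difference was -4.12 and passed the threshold. Hamp2, a hepcidin, had a difference of -1.68 (adjusted p = 0.162) that passed without G5 (-2.07), and Cyp2b10, a drug-induced cytochrome P450, one of -1.44 (0.313). Mt1, a metallothionein, was at 8.90 to 9.59 against 9.90 to 11.42 (1.52, adjusted p = 0.564), without overlap, while the DEN livers, which enter the shared spread, ran from 9.80 to 16.74. Trib3, a stress-induced pseudokinase, was at 7.22 to 7.79 against 8.02 to 9.52 (1.37, 0.0673), which passed without G6 (1.55). The globin genes Hbb-b1 and Hba-a1 had differences of 1.60 (0.233) and 1.38 (0.217). The mean over the 3 detected erythroid markers was 10.98 to 12.07 in the control and 11.44 to 13.22 in the Gas1 livers, and the part of residual blood in the other results was not tested.

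**Figure D5:**
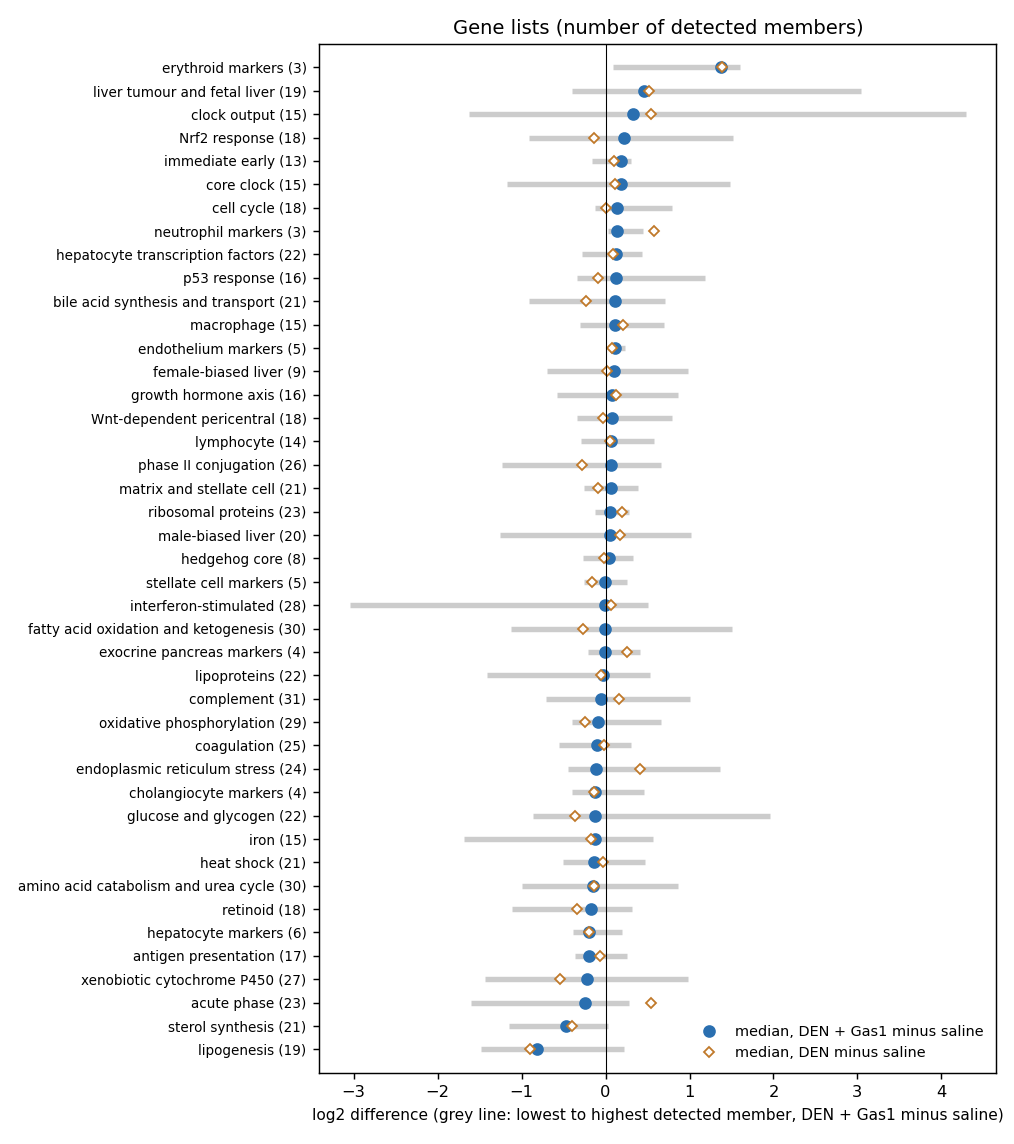
Log2 differences of Gas1 minus control livers (horizontal axis) for each gene list (vertical axis), with a grey line from the lowest to the highest detected member and a point at the median. The medians of the lipogenesis (-0.82) and sterol synthesis (-0.47) lists lie below 0 and that of the liver tumour and fetal liver list (0.46) above 0, and that of the 3 erythroid markers (1.38) lies farthest from 0.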

How the data were processed

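RNA from livers of 3 saline mice, 4 DEN mice and 6 DEN + Gas1 mice was hybridised in 1 colour (Cy3) to Agilent mouse arrays (62976 spots). The labels name TRIzol for RNA extraction and the study's methods a column kit. The deposited scanner files hold spot and background intensity values that the authors extracted with Agilent Feature Extraction 10.7.3.1 (per the file headers), without normalization between arrays, and a 0 or 1 score per spot for signal well above background. The authors also deposited a table of log2 values made by normexp correction and quantile normalization, which was used as an alternative.

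From the intensities, log2 values were rebuilt with R 4.3.3, limma 3.58.1 and data.table (version 1.17.8): normexp correction with an offset of 50, then quantile normalization over the 59305 spots that are not controls. Spots flagged as outliers by the scanner software were left out. Spots of a probe were averaged, and the 29522 probes with a symbol were averaged per gene after centring each probe. Arrays of the same RNA code (C3 with C4, T4 with T5) were averaged, and their log2 values differed with an SD of 0.145 and 0.143. Limma fitted 1 mean per group over the 13 livers, with Benjamini-Hochberg adjustment over 22032 symbols and a threshold of 0.05. The script was tested on simulated data. The number of livers limits the precision.

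Named genes were the called genes with the 15 largest increases, the 15 largest decreases and the 10 lowest p-values, Gas1, and from each gene list the called members and the 2 with the largest difference. One gene is not reported here and was left out of the lists. Exceptions are marked as picked after their values were seen, save those named with their stretch or in a count of 5 or fewer. The members and lists were chosen with earlier results of these data known. A shift common to all genes cannot be seen after the quantile step. Tried alternatives were other scalings, probe summaries, filters, sample sets, slide and replicate terms, other tests and leaving out each liver. Probe coordinates are on mm9 and promoter windows on GRCm38.p6, and neither was converted.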

Additional observations from a re-analysis of the deposited data

Results flagged for a closer look

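A liver of the Gas1 group stood apart from the other Gas1 livers in 7 of 67 genes. The measure was the gap to its nearest neighbour as a share of the group's range. Prkce, 1 of the 67, had values in only 3 Gas1 livers and could not be tested. Chance gives such a gap in about 1 in 20 groups. Liver G5 was the highest in Klf9 (log2 signal 10.23), Gm14391 (9.454), Zfp931 (8.143) and Hamp2 (9.83). Liver G3 was the highest in Slc25a47 (12.17) and G2 in Mif4gd (9.181). Liver G6 was the highest in H19 at 11.84, with the next liver at 7.718. Probes without a gene symbol were outside the comparisons of genes. Of 16251 lincRNA probes, 5 were well above background on all Gas1 arrays and on no control array, and the same was true of 3 of the 9908 probes without any name. No such probe was seen in the opposite direction. The median number of spots above background was higher on the Gas1 arrays than on the control arrays.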

How the results depend on the processing

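The 94 calls (39 higher, 55 lower, 94 detected; 41.5% higher) depended on scaling, test and livers. There were 0 calls (0 higher, 0 lower, 0 detected) with median scaling, where 6631 symbols had an unadjusted p under 0.05, and with the methods' t-test in Welch's form (2010). There was 1 call (1 detected) with cyclic loess (1 higher, 0 lower; 2010 unadjusted), with the processed signal at its 75th percentile (1 higher, 0 lower; 6094), with the methods' t-test of equal variances (0 higher, 1 lower; 2218) and within slide 1 (0 higher, 1 lower). Within slide 2 there were 3 (2 higher, 1 lower, 3 detected). Adjustment over the detected genes gave 206 (81 and 125, 206 detected), 15 arrays as separate livers 342 (125 and 217, 341 detected), groups C and G alone 47 (15 and 32, 47 detected) and slide as a term 166 (60 and 106, 166 detected). Apart from the replicate block and left-out livers, the remaining alternatives gave 68 to 111 calls. Leaving out 1 liver gave 0 to 182 calls, 0 to 76 higher, 0 to 116 lower and 0 to 173 detected. No call was kept under all 31 alternatives. The cause of these changes was not tested.

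Replicate numbers in the labels do not mark shared animals. Deviations of same-numbered livers correlated at 0.116, 0.0904 and 0.25, each the highest for its control liver. The labels do not say what the numbers stand for, so the main fit did not use them as pairs. Whether same-numbered livers shared a handling step was not tested, and the main calls hold only without such a pairing. The fit with a replicate block gave 55 calls (27 higher, 28 lower, 55 detected), of which 19 were among the 94.

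Median scaling moved the median of detected genes by 0.40 and turned 27 called genes from lower to higher, among them Ebpl (0.073), Gstm7 (0.12), Haao (0.38), Mif4gd (0.31) and Pgd (0.20). The 75th percentile scaling moved the median of all genes to -0.30 and that of the detected genes to -0.043. Relative to the median of the detected genes all 94 kept their sign. Of uncalled genes, Gm14439 was at -0.033 with that scaling and at -0.044 within slide 1, and Gas1 at -0.091 within slide 1 and between -0.029 (without C1) and 0.15 (without C2) with 1 liver left out. The other genes with values in the text kept their direction. Probes near background compress differences, which limits low genes such as Per3.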
